A study of Mus musculus with 23 samples.

Results

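Cells make cholesterol from acetyl-CoA by the mevalonate pathway, and 7 genes tied to that pathway are described here in single mouse mesenchymal stem cells (MSCs) and single cardiomyocytes. The genes are Hmgcs1, Idi1, Fdps, Fdft1, Sqle, Cyp51 and Insig1. They were taken by symbol from an expression table of 23284 genes, and all 7 symbols were found. RNA was sequenced from 16 single bone marrow MSCs (mMSC1 to mMSC16) and 5 single HL-1 cardiomyocytes (HL1cm1 to HL1cm5), with a population control of many cells for each cell type (mMSC-PC and HL1cm-PC), which makes 23 libraries. All single cells were captured on the same chip, the HL1cm marked with a green dye. The mMSCs were purchased, came from adult male mice and are labelled C57BL/6J. They were used at passages 6 to 11 and grown on gelatin in alpha-MEM with fetal bovine serum. HL-1 is an established line that came from an atrial tumour of a mouse carrying a viral large T antigen under the Nppa promoter, so it is a dividing line and not primary muscle. HL1cm carry the same strain label, were used at passages 70 to 85 and were kept on fibronectin and gelatin in Claycomb medium with serum and norepinephrine. Cell type, passage and medium therefore go together here and cannot be told apart. Separate cultures are named nowhere in the sources, so each cell type counts as 1 sample of which the cells are parts, and no difference below carries a test.

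The pathway begins with cytosolic HMG-CoA synthase and passes through mevalonate to isoprenoid units, which are joined into farnesyl diphosphate, then squalene, then lanosterol, and finally cholesterol. When the sterol content of the endoplasmic reticulum is low, the protein Scap carries SREBP-2 to the Golgi, where it is cleaved to a transcription factor that binds sterol regulatory elements in the promoters of most pathway genes. When sterols are plentiful, Insig proteins hold Scap back. Insig1 is itself an SREBP target, so its transcript is widely read together with those of the enzymes. In MSCs the pathway supplies membrane sterol for growth and isoprenoids for the anchoring of small GTPases.

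Promoter sequences are shown for 3 members because sterol control of these genes acts through promoter elements, and their levels are compared with each other below. Of the 7 members, 4 had an entry in the promoter table used (RefSeq, build GRCm38.p6), from 250 bases before the start site to 50 after it. These were Hmgcs1, Idi1, Cyp51 and Insig1. Each sequence reads from the 5′ end on the strand of the gene, and capitals mark the letters TCACNCCAC of a sterol regulatory element or a CCAAT box (CCAAT, or ATTGG where it lies on the other strand). Both strands were searched, and the 2 motifs share no bases where they were found. Hmgcs1 lies at chr13:119690101-119690400 on the plus strand, Idi1 at chr13:8885356-8885655 on the plus strand and Insig1 at chr5:28071162-28071461 on the plus strand.
Hmgcs1: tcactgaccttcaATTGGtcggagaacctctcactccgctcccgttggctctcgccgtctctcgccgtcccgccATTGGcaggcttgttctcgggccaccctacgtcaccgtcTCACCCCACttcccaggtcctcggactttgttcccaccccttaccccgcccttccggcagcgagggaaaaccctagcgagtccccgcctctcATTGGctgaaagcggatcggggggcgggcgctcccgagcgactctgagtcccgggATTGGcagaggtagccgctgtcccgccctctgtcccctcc
Idi1: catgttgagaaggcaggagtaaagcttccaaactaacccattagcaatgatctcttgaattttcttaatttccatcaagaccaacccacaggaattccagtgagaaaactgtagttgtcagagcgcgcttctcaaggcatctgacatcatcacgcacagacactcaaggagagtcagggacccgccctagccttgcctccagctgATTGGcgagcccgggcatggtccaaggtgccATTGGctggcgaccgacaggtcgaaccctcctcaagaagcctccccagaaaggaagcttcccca
Insig1: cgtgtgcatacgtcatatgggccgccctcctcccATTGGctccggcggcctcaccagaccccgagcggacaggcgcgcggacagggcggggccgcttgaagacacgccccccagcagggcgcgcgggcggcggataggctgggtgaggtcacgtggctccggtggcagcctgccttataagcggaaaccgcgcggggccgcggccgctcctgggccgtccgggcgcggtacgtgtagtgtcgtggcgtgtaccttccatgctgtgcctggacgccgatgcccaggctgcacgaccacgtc
The Hmgcs1 promoter held TCACCCCAC with its first base 137 bases before the start site, and 1.24% of 32851 promoters of this length held a match to TCACNCCAC. The other 3 promoters held no match to those letters in this window. Other spellings of the element were not searched for, so these 3 promoters may still hold one. A CCAAT box was in all 4 promoters, with 4 in Hmgcs1, 2 in Idi1 and 1 each in Cyp51 and Insig1, against 37.4% of all promoters with at least 1.

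By GENCODE M21, on GRCm38 (mm10), the genes lie on 5 chromosomes. Hmgcs1 spans chr13:119690379-119708260 and Idi1 chr13:8885501-8892451, both on the plus strand. Fdps spans chr3:89093588-89101959, Fdft1 chr14:63145150-63179578 and Cyp51 chr5:4081145-4104746, all on the minus strand. Sqle spans chr15:59315077-59331192 and Insig1 chr5:28071363-28078662 on the plus strand. The libraries do not keep strand, so reads of overlapping genes cannot be told apart. The 3' exons of Fdft1 and of Ctsb, the gene of cathepsin B on the opposite strand, share 774 bases in that annotation, and an exon of Cyp51 overlaps one of Akap9. Fdps exons overlap the model Gm43738 (929 shared bases), Hmgcs1 exons Gm48342 (462) and Idi1 exons Gm48574 (323). Near-identical sequence elsewhere in the genome could also share reads with some members. Fdps transcripts matched 5 gene models that do not overlap Fdps at 90% identity or more over at least 605 bases, the closest of them Gm3571 at 98.9% over 1062 bases. Idi1 transcripts matched Gm13502 at 100% over 684 bases, and Fdft1 transcripts matched Gm6781 at 97.4% over 1249 bases. Sqle matched 2 models over at most 224 bases, and no match was found for Insig1. The levels of members with such overlaps or copies are uncertain to that extent.

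All values are FPKM, fragment numbers scaled by exon length and by the mapped total of the library, as the authors deposited them, so levels of different genes are per length. The table holds no counts, and the depth behind a value is not known from it. Single mMSCs had 5198 to 7641 genes above 0, the fewest in mMSC9 and mMSC15 (5902), and single HL1cm had 6788 to 7226, and the population controls had more (10279 for mMSCs, 10157 for HL1cm). The sum of FPKM ran from 630240 to 2529610 in mMSCs and from 672862 to 2256520 in HL1cm. Of 9 mMSC markers, 8 were above 0 in at least 1 mMSC and Thy1 was listed at 0 in all 16. The 9 cardiomyocyte markers summed to 30898 to 57445 FPKM in HL1cm and to at most 65.4 FPKM in any mMSC, and Nppa and Nkx2-5 were listed at 0 in all mMSCs. Macrophage markers summed to 3.10 to 369 FPKM in mMSCs. Csf1r, Cd68 and Cd14 were above 0 in at least 1 mMSC, and Ptprc, Emr1, Lyz2, C1qa and C1qb were listed at 0 throughout. Adipocyte markers summed to at most 194 FPKM, with Fabp4 and Pparg above 0 in at least 1 mMSC and Adipoq, Plin1, Cfd and Lep at 0. Endothelial markers summed to at most 10.8 FPKM in mMSCs, with Kdr above 0 in at least 1 mMSC and Pecam1, Cdh5 and Tek at 0. A listed 0 is not proof that a transcript was absent. Canx, a chaperone of the endoplasmic reticulum, was listed at 0 in mMSC12 and stood between 809 and 1991 FPKM in the other 15 mMSCs. Of 509 genes that reached 100 FPKM in no fewer than 15 mMSCs, 5 were listed at 0 in the remaining cell. For log2 values, 1 FPKM served as the floor, as in the script used for the study.

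The pathway was on in most single mMSCs. All 7 members were above 0 in 9 of the 16 cells, 6 of 7 in 5 cells and 4 of 7 in 2 cells, mMSC10 and mMSC13. Cyp51 and Insig1 were above 0 in all 16 mMSCs. Fdps was above 0 in 15, Hmgcs1, Idi1 and Fdft1 in 14 each, and Sqle in 12. By median FPKM the order was Fdps (76.0), Hmgcs1 (49.0), Idi1 (38.4), Sqle (24.4), Cyp51 (23.8), Insig1 (23.2) and Fdft1 (20.8). Ranges of all neighbours in that order overlapped, and the order did not hold cell by cell. Fdps exceeded Hmgcs1 in 10 of 16 cells, Hmgcs1 exceeded Idi1 in 8, and Cyp51 exceeded Insig1 in only 4. Fdps was the highest member in 8 cells, Idi1 in 4, Hmgcs1 in 2, and Sqle and Insig1 in 1 each.

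**Figure D1:**
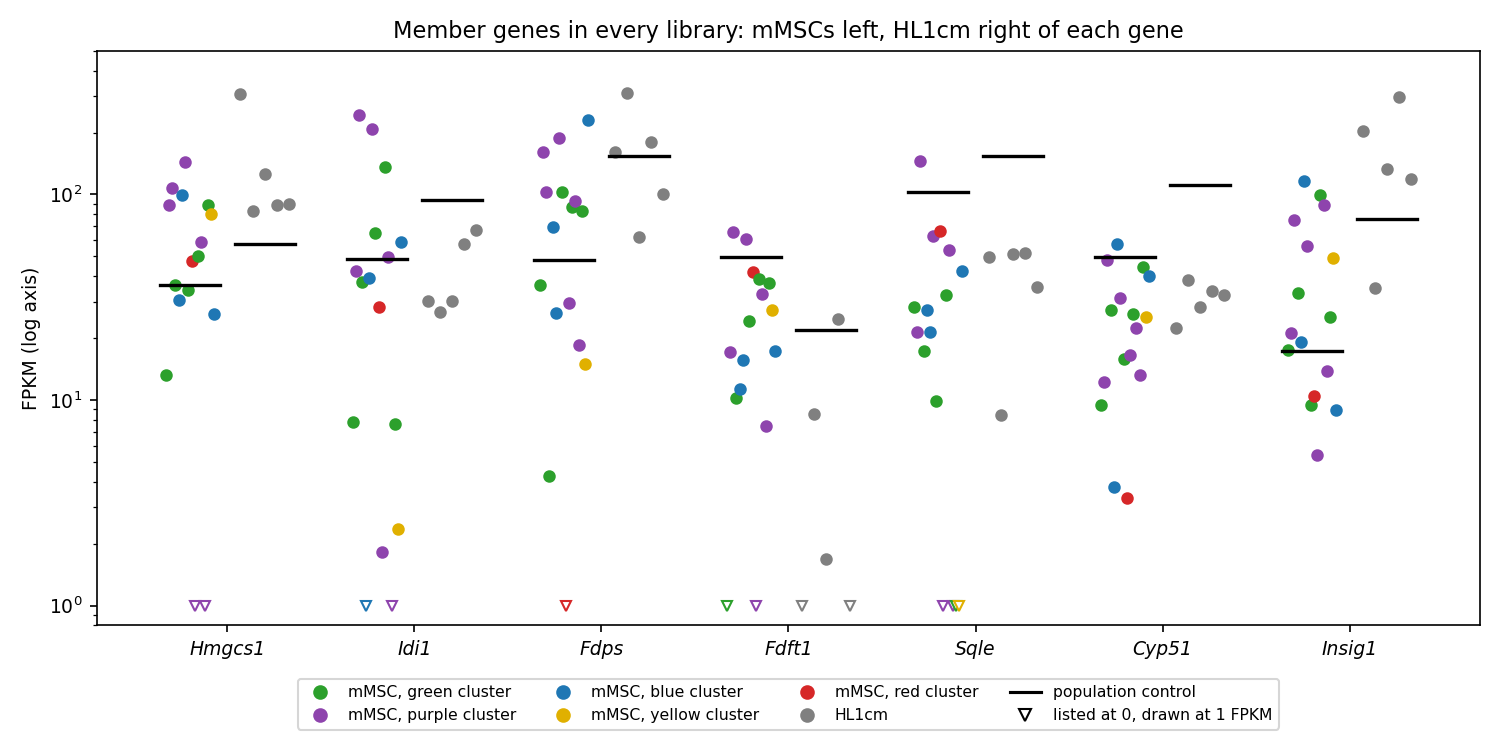
FPKM on a log axis of each member in every library, with the 16 mMSCs to the left (coloured by cluster, described below) and the 5 HL1cm to the right (grey), 1 point per cell, and a black bar for the population control. Open triangles are cells listed at 0, drawn at 1 FPKM. The clouds of the 2 cell types overlap for every gene.

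At the entry to the pathway, Hmgcs1 (cytosolic HMG-CoA synthase, which condenses acetyl-CoA and acetoacetyl-CoA) ran from 0 to 144 FPKM in mMSCs. The highest cells were mMSC7 at 144 FPKM and mMSC3 at 108 FPKM, and the only cells listed at 0 were mMSC10 and mMSC13. The lowest cell above 0 was mMSC1 at 13.2 FPKM, so apart from the 2 zeros the values spread over 10.9-fold. In HL1cm1 to HL1cm5 the values were 308, 82.7, 126, 89.0 and 89.8 FPKM. No HL1cm was below 82.7 FPKM, and 11 of 16 mMSCs were. The population controls stood at 36.2 FPKM for mMSCs and 57.7 FPKM for HL1cm, below all 5 single HL1cm.

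Idi1 (isopentenyl diphosphate isomerase, which interconverts the 5-carbon isoprenoid units) varied most among the members in mMSCs. It was listed at 0 in mMSC5 and mMSC13, had a median of 38.4 FPKM and reached 243 FPKM in mMSC3, 208 FPKM in mMSC7 and 137 FPKM in mMSC11. Leaving out the zeros, the highest value was 134-fold the lowest, 1.81 FPKM in mMSC10. HL1cm values were close together, at 30.3, 26.7, 30.3, 57.3 and 67.1 FPKM in HL1cm1 to HL1cm5, and lay inside the mMSC range. In the population controls it was 48.3 FPKM for mMSCs and 94.0 FPKM for HL1cm.

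Fdps (farnesyl diphosphate synthase, which makes the branch point of sterols, dolichol, ubiquinone and protein prenylation) was listed at 0 in mMSC9, the mMSC with the fewest genes above 0. Its median was 76.0 FPKM and its highest value 230 FPKM, in mMSC16. In HL1cm1 to HL1cm5 it was 161, 313, 62.2, 180 and 101 FPKM, and 7 mMSCs lay under the lowest of these. Population levels were 48.2 FPKM for mMSCs and 154 FPKM for HL1cm. Fdps was thus among the 2 members with the highest medians in both cell types.

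Fdft1 (squalene synthase, the first enzyme committed to sterols) went the other way between cell types. In mMSCs it was listed at 0 in mMSC1 and mMSC10, had a median of 20.8 FPKM and reached 65.4 FPKM in mMSC3 and 60.6 FPKM in mMSC7. In HL1cm1 and HL1cm5 it was listed at 0, and in HL1cm2, HL1cm3 and HL1cm4 it was 8.55, 1.69 and 24.7 FPKM. Population levels were 49.6 FPKM for mMSCs and 21.8 FPKM for HL1cm. Ctsb, with which Fdft1 shares exon sequence, ran from 159 to 373 FPKM in mMSCs and from 16.1 to 41.2 FPKM in HL1cm, a difference of 3.03 on the log2 scale in the direction of the Fdft1 difference. Across the 16 mMSCs the log2 values of Ctsb and Fdft1 had r = 0.08 (rho = 0.09). The part of reads from Ctsb in the Fdft1 values was not tested.

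Sqle (squalene epoxidase, a rate-limiting step after squalene) was the member listed at 0 in most mMSCs, in mMSC10, mMSC13, mMSC14 and mMSC15. Its median was 24.4 FPKM and its highest value 145 FPKM, in mMSC3. In HL1cm1 to HL1cm5 it was 49.7, 8.40, 51.4, 51.8 and 35.4 FPKM, with HL1cm2 apart from the rest. Both population controls were above nearly all of their single cells, at 102 FPKM for mMSCs and 153 FPKM for HL1cm. A single mMSC, mMSC3, exceeded its population control.

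Cyp51 (lanosterol 14-alpha-demethylase, which acts on the sterol ring) was the steadiest member. It lay between 3.32 FPKM in mMSC9 and 57.6 FPKM in mMSC6, with a median of 23.8 FPKM. HL1cm values were 22.4, 38.4, 28.3, 34.0 and 32.4 FPKM in HL1cm1 to HL1cm5, all inside the mMSC range. The population controls were 49.5 FPKM for mMSCs and 111 FPKM for HL1cm.

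Insig1 (the sterol-regulated anchor of Scap) was above 0 in all 21 single cells. In mMSCs it ran from 5.38 FPKM in mMSC10 to 116 FPKM in mMSC6, with a median of 23.2 FPKM. In HL1cm1 to HL1cm5 it was 203, 35.0, 133, 298 and 119 FPKM, and 10 of 16 mMSCs lay under the lowest of these. The population controls were 17.2 FPKM for mMSCs and 76.2 FPKM for HL1cm, a ratio of 4.42.

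Between cell types, 6 of the 7 members had a lower mean log2 FPKM in mMSCs than in HL1cm, and Fdft1 a higher one. The mMSC minus HL1cm difference was -2.24 for Insig1, -1.88 for Hmgcs1, -1.73 for Fdps, -1.22 for Sqle, -0.98 for Idi1, -0.68 for Cyp51 and 2.31 for Fdft1. The median over members was -1.22, where the median over the 11850 genes that reached 1 FPKM in 2 or more of the cells compared was 0.08. A level 2-fold or more higher in HL1cm was found for 4 of 7 members, against 21.6% of all those genes, and a level 2-fold or more higher in mMSCs for 1 of 7, against 21.4%. No member separated the cell types, since the ranges overlapped for all 7, as they did for all but 3.96% of genes. The population controls differed in the direction of the single cells for 7 of 7 members, against 64.5% of all genes. Their differences were largest for Insig1 (-2.15), Fdps (-1.68) and Fdft1 (1.19) and smallest for Sqle (-0.58).

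Cells listed at 0 weighed on some of these values. When they were left out, Sqle stood at 0.059, so its sign turned, and Idi1 at -0.37, while Insig1 (-2.24), Fdps (-1.37), Hmgcs1 (-1.16) and Fdft1 (1.75) kept their direction. The median over members then was -0.68, and 3 members were 2-fold or more higher in HL1cm. By group medians Idi1 was 0.34 higher in mMSCs.

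**Figure D2:**
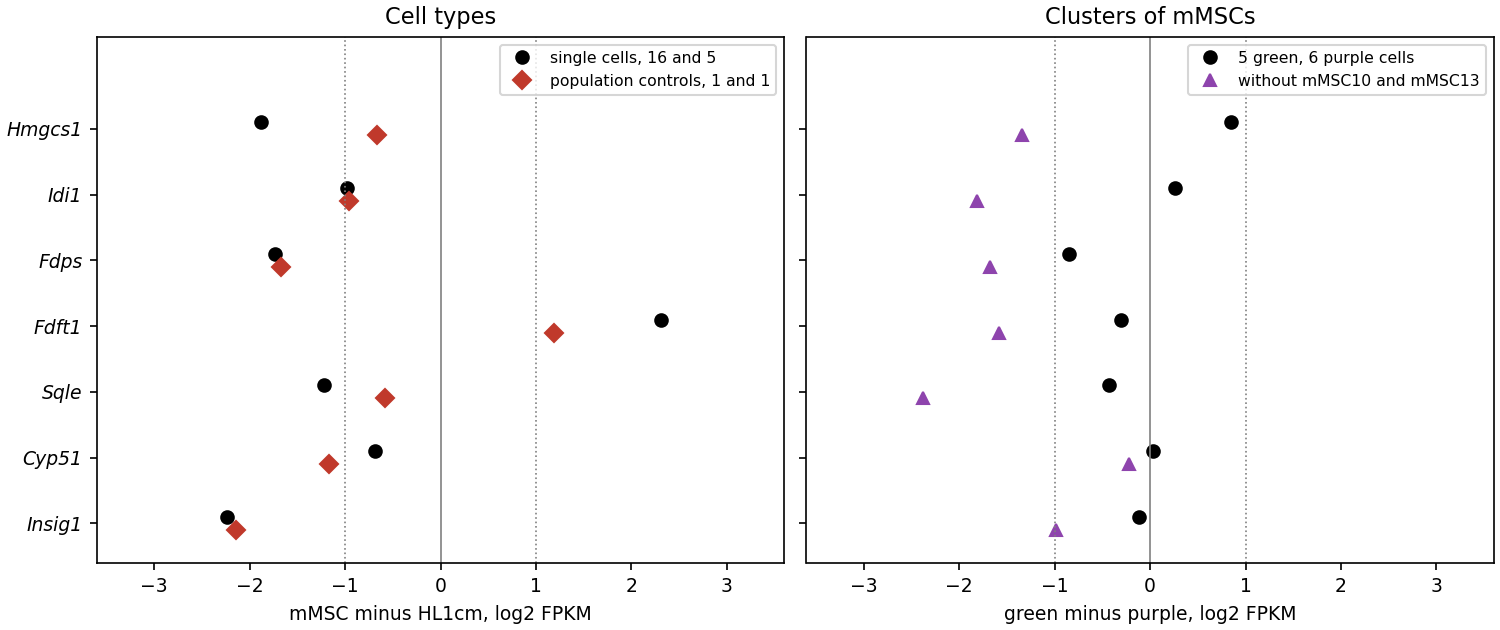
Differences of mean log2 FPKM for each member, with dotted lines at 2-fold either way. On the left, mMSC minus HL1cm in single cells (black points) and in population controls (red diamonds), which fall on the same side of 0 for all 7 genes. On the right, green minus purple mMSCs with all cells (black points) and without mMSC10 and mMSC13 (purple triangles), which move to the purple side for all 7.

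For 3 enzymes the population control stood higher than the mean of the single cells in both cell types. In such a control, fewer cells with a transcript and less of it per cell cannot be told apart. The control was 3.09 times the single-cell mean for Sqle, 2.00 times for Cyp51 and 1.95 times for Fdft1 in mMSCs, and 3.90, 3.57 and 3.11 times in HL1cm. For Insig1 and Hmgcs1 the control stood lower in both, at 0.425 and 0.640 times in mMSCs and 0.484 and 0.414 times in HL1cm. Fdps was lower in both as well, at 0.618 and 0.943 times. Idi1 differed between the cell types, at 0.832 times in mMSCs and 2.22 times in HL1cm.

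The study grouped its mMSCs into 5 colour clusters by global expression, and described the green one by genes of cell division. For the purple one it reported lower cell division genes. It also reported higher genes of growth factors, vesicle transport, lipid biosynthesis and the extracellular region there. It considered a commitment of the purple cells to adipogenesis and found no significant tendency to it. The green cells are mMSC1, mMSC4, mMSC8, mMSC11 and mMSC14, whereas mMSC2, mMSC3, mMSC7, mMSC10, mMSC12 and mMSC13 are purple. Since the clusters were drawn from all genes of the same cells, the values of members in them are a description only. The 14 proliferation genes summed to 1767 to 2190 FPKM in green cells and to 117 to 305 FPKM in purple cells, with no overlap. The members showed no such split.

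Hmgcs1 in green cells mMSC1, mMSC4, mMSC8, mMSC11 and mMSC14 was 13.2, 36.3, 34.5, 50.4 and 88.5 FPKM. In purple cells it ran from 0 through a median of 73.4 to 144 FPKM. Idi1 was 7.80, 37.5, 65.2, 137 and 7.67 FPKM in the green cells, and in purple cells it ran from 0 through a median of 46.1 to 243 FPKM. The purple cells thus reached both below and above the green ones for these genes.

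Fdps in the same green cells was 36.2, 4.28, 103, 87.0 and 82.9 FPKM, against 18.5 to 189 FPKM in purple cells with a median of 97.9 FPKM. Fdft1 was 0, 10.2, 24.3, 39.0 and 37.1 FPKM in the green cells, against 0 to 65.4 FPKM and a median of 24.8 FPKM in purple cells. Sqle was 28.5, 17.3, 9.91, 32.3 and 0 FPKM in the green cells, against 0 to 145 FPKM and a median of 37.5 FPKM in purple cells. In each of these genes the highest purple cell was above all green cells.

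Cyp51 was 9.43, 27.4, 15.8, 26.1 and 44.3 FPKM in the green cells and 12.2 to 47.7 FPKM, median 19.4 FPKM, in purple cells. Insig1 was 17.5, 33.1, 9.42, 99.3 and 25.2 FPKM in the green cells and 5.38 to 88.9 FPKM, median 38.7 FPKM, in purple cells. For Insig1 the highest of the 11 cells was green, mMSC11.

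The green minus purple difference of mean log2 FPKM was 0.85 for Hmgcs1, 0.26 for Idi1, 0.03 for Cyp51, -0.12 for Insig1, -0.31 for Fdft1, -0.43 for Sqle and -0.85 for Fdps. Their median was -0.12, beside 0.03 over the 10202 genes that reached 1 FPKM in 2 or more of these cells. No member was 2-fold or more higher in green, against 16.3% of all genes, and none was 2-fold or more higher in purple, against 12.1%. Ranges overlapped for all 7 members, and 1.68% of all genes had ranges that did not. The purple group was wide. Without mMSC10 and mMSC13, the pair with the lowest member levels, all 7 differences fell on the purple side and the median was -1.58. Then 5 of 7 members were 2-fold or more higher in purple (14.2% of all genes), with Sqle at -2.38, Idi1 at -1.82, Fdps at -1.67, Fdft1 at -1.58 and Hmgcs1 at -1.34, while Insig1 was -0.99 and Cyp51 -0.22. These cells were left out because of their member levels, so the second set of values shows how far the first rests on them and supports nothing further. Leaving out mMSC10 alone gave 3 members 2-fold or more higher in purple.

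The members were spread widely over single mMSCs. The SD of log2 FPKM over the 16 cells was 2.64 for Idi1, 2.45 for Sqle, 2.16 for Hmgcs1, 2.10 for Fdps, 1.80 for Fdft1, 1.39 for Insig1 and 1.20 for Cyp51. The median over members was 2.10. Over the 1176 genes with a mean log2 level inside the range of the members, the median SD was 1.47 and the upper quartile 1.91, so 4 members lay above that quartile and Cyp51 and Insig1 below the median. Leaving out cells listed at 0 brought the median over members to 1.20.

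A member score, the mean over members of log2 FPKM scaled to mean 0 and SD 1 across the 16 cells, placed mMSC10 (-1.36) and mMSC13 (-1.12) lowest and mMSC7 (0.94) and mMSC3 (1.06) highest. All 4 of these cells are purple. Green cells lay between -0.62 (mMSC1) and 0.68 (mMSC11), and blue cells, mMSC5, mMSC6 and mMSC16, between -0.50 and 0.55. The lone red and yellow cells, mMSC9 and mMSC15, stood at -0.51 and -0.21. mMSC10 had 7239 genes above 0 and mMSC13 had 6941, both inside the range of the other mMSCs, and their Gapdh levels were 189 and 198 FPKM, where all mMSCs ran from 157 to 319 FPKM. The summed FPKM of mMSC13 (630240) was the lowest of the 16, and that of mMSC10 was 817259. mMSC13 had 6496 genes at 1 FPKM or more, fewer than any mMSC but mMSC9 and mMSC15, and mMSC10 had 6851. A part of library quality in their scores was not tested. Over the 16 cells the score had r = 0.29 (rho = 0.34) with the number of genes above 0, r = -0.05 (rho = -0.07) with log2 Gapdh, r = -0.17 (rho = -0.26) with the summed FPKM and r = 0.02 (rho = -0.16) with the mean log2 level of the proliferation genes.

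**Figure D3:**
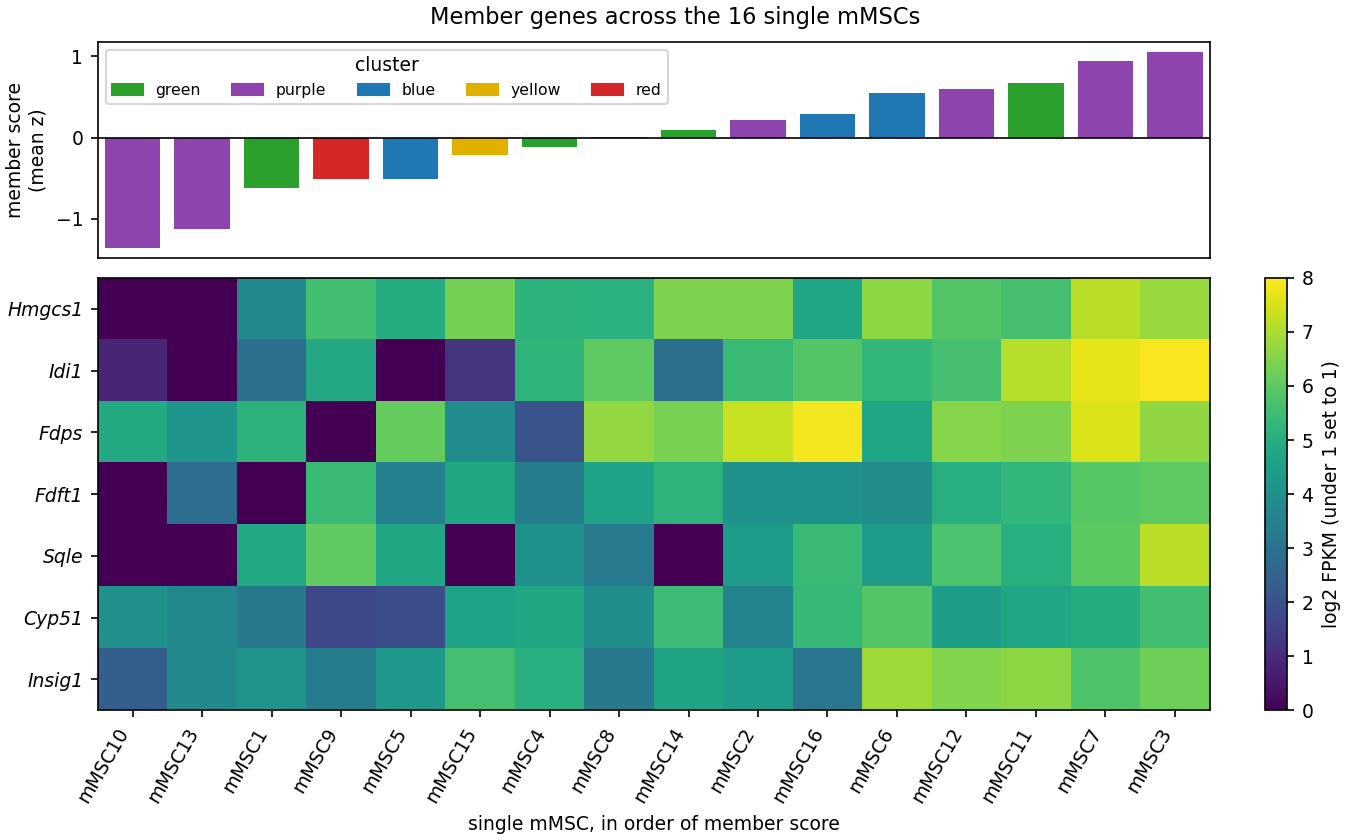
The upper bars give the member score of each of the 16 mMSCs in rising order, coloured by cluster, and the lower panel the log2 FPKM of each member in the same cells. Purple cells take both the lowest positions (mMSC10, mMSC13) and the highest (mMSC7, mMSC3), and the dark cells at the left are values listed at 0 or near it.

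The members varied together across mMSCs. Over the 21 pairs of members, the median Pearson's r of log2 FPKM was 0.41 and the median Spearman's rho 0.44, with r above 0 for 20 pairs and rho above 0 for 21. Over all pairs of 4679 genes that reached 1 FPKM in 12 or more of the 16 mMSCs, the median r was -0.002 and 50.1% of rho values were above 0. These correlations describe 16 cells that share a capture chip and a sequencing run, and carry no test. The highest r were between Hmgcs1 and Fdft1 (0.75), Idi1 and Sqle (0.73), Hmgcs1 and Idi1 (0.64) and Hmgcs1 and Insig1 (0.63). The lowest was between Sqle and Cyp51 (-0.06), and the 4 next lowest all held Fdps, from 0.16 with Sqle to 0.21 with Hmgcs1. Against the mean of the other 6, Idi1 had r = 0.78, Hmgcs1 0.75, Fdft1 0.64, Insig1 0.63, Sqle 0.48, Cyp51 0.43 and Fdps 0.32. The place of Fdps depended on the measure. Its rho with the other 6 was 0.51, beside 0.49 for Sqle and 0.57 for Cyp51. Its pair with Idi1 had rho = 0.67 where r was 0.31, while its pair with Insig1 had the lowest rho, 0.03. Without mMSC10 and mMSC13 the median r over the pairs was 0.30 and the median rho 0.29, with 19 of 21 above 0.

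Among the 4672 of these genes that are not members, the one whose levels tracked the member score most closely was another enzyme of the same pathway, Sc4mol (now Msmo1), the sterol C4-methyl oxidase that acts after Cyp51. Its rho with the score was 0.79 (r = 0.79), and 0.70 without mMSC10 and mMSC13, when Rbm28 exceeded it (0.72). Sc4mol was 204 FPKM in mMSC3 and 183 FPKM in mMSC7, was listed at 0 in mMSC10, stood at 31.5 FPKM in mMSC13, and had a median of 76.4 FPKM. Its r was 0.85 with Fdft1 and 0.80 with Hmgcs1, and 0.07 with Fdps. The next 4 genes were Mcl1 (an anti-apoptotic Bcl2 family member, rho 0.76), Rbm28 (0.74), Trpm7 (an ion channel with a kinase domain, 0.72) and Khdrbs3 (an RNA-binding protein, 0.72). The 3 lowest were Lsmd1 (-0.75), Pmpcb (a subunit of the mitochondrial processing peptidase, -0.75) and Aup1 (a lipid droplet protein, -0.80). The quartiles of rho over all 4672 genes were -0.16 and 0.19.

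**Figure D4:**
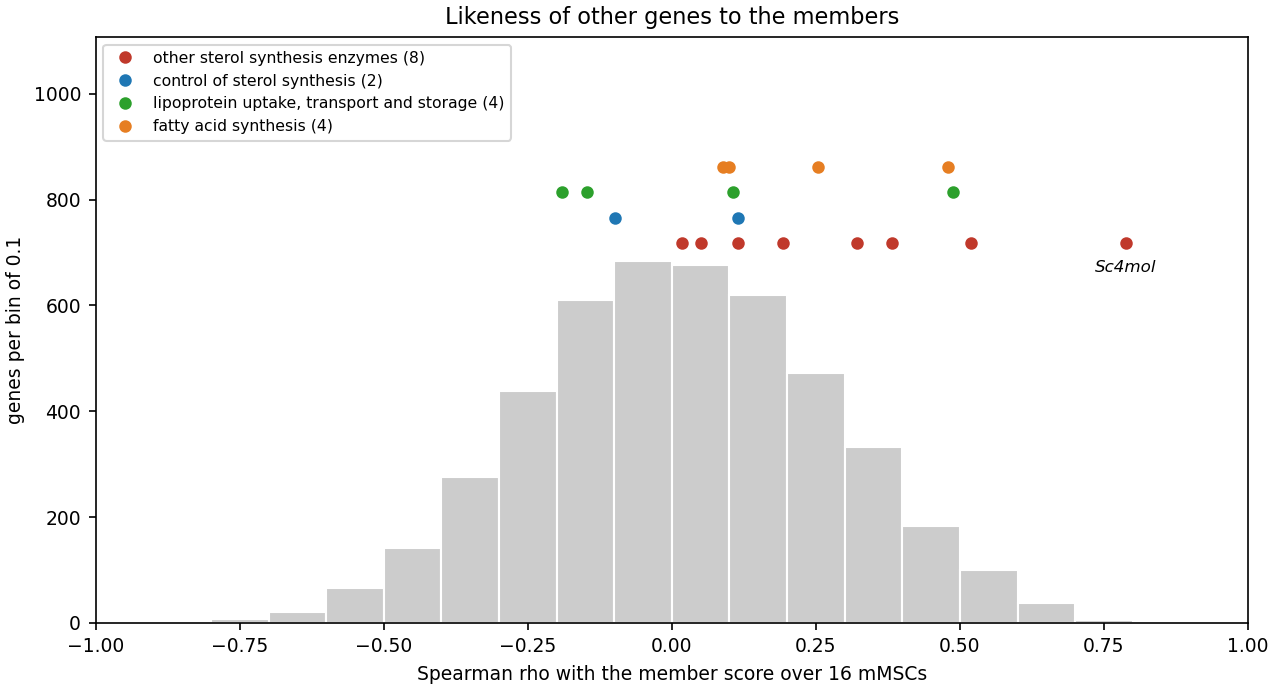
Grey bars count the 4672 genes by Spearman rho with the member score over 16 mMSCs, and coloured points above them mark genes of 4 related lists that passed the same expression limit. All 8 other sterol synthesis enzymes (red) lie above 0, with Sc4mol at 0.79, where 51.6% of all genes do. The 4 of 7 fatty acid synthesis genes that passed (orange) lie between 0.09 (Scd1) and 0.48 (Scd2). Their median is 0.18, below the upper quartile of all genes (0.19). The other 2 lists fall on both sides of 0.

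**Figure D5:**
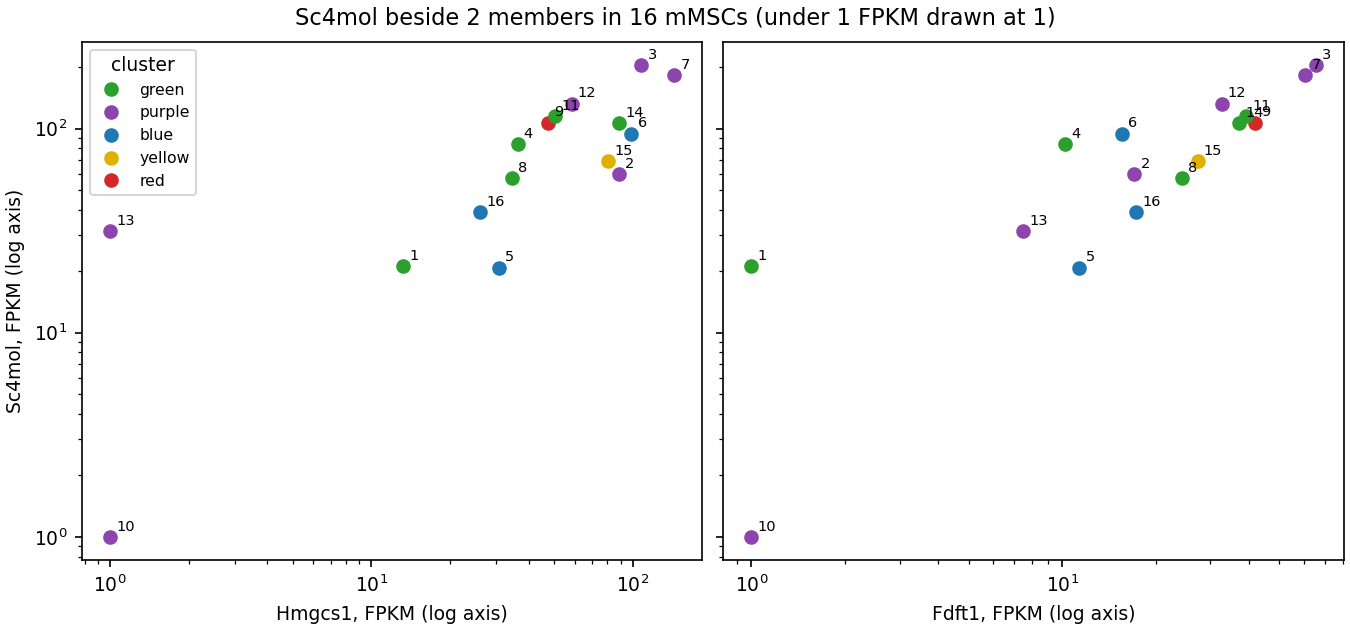
Sc4mol against Hmgcs1 (left) and Fdft1 (right), FPKM on log axes, 1 point per mMSC with its number and its cluster colour. mMSC3 and mMSC7 are at the upper right and mMSC10, at 0 for all 3 genes and drawn at 1 FPKM, is at the lower left.

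The rest of the pathway was less evenly detected. Of 15 other sterol synthesis enzymes, all in the table, 5 were above 0 in all 16 mMSCs and Dhcr7, which reduces the last double bond in one branch, was listed at 0 in all 16. Between cell types 3 of the 15 were 2-fold or more higher in mMSCs and 6 in HL1cm, against 21.4% and 21.6% of all genes. The median difference was -0.27. Sc4mol, Nsdhl (1.32) and Hsd17b7 (1.21) were those higher in mMSCs, and Acat2 (-1.02), Pmvk (-2.86) and Mvd (-1.54) were, with Lbr and Sc5d, among those higher in HL1cm. Sc4mol was 1.88 higher in single mMSCs on the log2 scale. The population controls differed by only 0.41 for Sc4mol, 0.12 for Nsdhl and 0.73 for Hsd17b7, each less than 2-fold. For Acat2, Pmvk and Mvd the controls differed by -1.29, -2.39 and -3.47. Mvd was above 0 in only 4 of 16 mMSCs and 2 of 5 HL1cm. Lbr, a sterol reductase of the nuclear envelope, had medians of 65.7 FPKM in mMSCs and 239 FPKM in HL1cm and a difference of -2.03. Sc5d, the sterol C5-desaturase, had medians of 74.1 FPKM and 134 FPKM and a difference of -1.09, while its population controls went the other way (48.8 and 37.1 FPKM). Ebp, the sterol isomerase, differed by 0.22, with population controls of 84.2 and 112 FPKM. Between green and purple cells 2 of 14 tested were 2-fold or more higher in green and 2 in purple, against 16.3% and 12.1% of all genes. Lbr (1.87) and Pmvk (2.62) were higher in green and Sc5d (-2.38) and Nsdhl (-1.26) in purple. The 8 of these enzymes that passed the expression limit all had a rho above 0 with the member score, with a median of 0.26, where 51.6% of all genes were above 0. Without mMSC10 and mMSC13, 6 of the 8 were above 0 and the median was 0.13.

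Apart from Insig2, the control genes had medians of at most 5.23 FPKM in single mMSCs. None of 9 (Srebf1, Srebf2, Scap, Insig2 and others) was above 0 in all 16 mMSCs. The mMSC population control was 11.7, 9.10, 8.40 and 4.30 times the single-cell mean for Srebf1, Srebf2, Mbtps1 and Nr1h2. It was below that mean for Scap, Insig2, Mbtps2, Nr1h3 and Mylip. Low single-cell values of the first group may therefore understate the level in the population. Insig2, the relative of Insig1, had a median of 14.9 FPKM in mMSCs and 1.83 FPKM in HL1cm, a difference of 0.79 where Insig1 had -2.24, though its population controls were 20.7 and 22.2 FPKM. Scap had medians of 5.23 FPKM in mMSCs and 0 in HL1cm. Of the 9, Scap (1.43) and Nr1h2 (1.22) were 2-fold or more higher in mMSCs and Mbtps1 (-2.20) in HL1cm. Over all genes these shares were 21.4% and 21.6%. The median difference over the 9 was 0.79. The population controls went the other way for Scap (2.95 FPKM for mMSCs, 8.37 FPKM for HL1cm) and for Nr1h2 (45.7 and 72.4 FPKM), and each of these genes was above 0 in only 1 of 5 HL1cm. Between green and purple cells none of 8 was 2-fold or more higher in green and 1, Nr1h2, was in purple (-1.25). Over all genes these shares were 16.3% and 12.1%.

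Among 9 tested genes of lipoprotein uptake, sterol transport and storage, 3 separated the cell types, Soat1, Npc2 and Lrp1. Over all genes, 3.96% had ranges that did not overlap. Soat1, which esterifies cholesterol for storage, ran from 22.8 to 241 FPKM in mMSCs and from 0.705 to 2.93 FPKM in HL1cm, a difference of 5.59 with no overlap. Npc2, a lysosomal cholesterol carrier, ran from 138 to 496 FPKM in mMSCs and from 0 to 32.1 FPKM in HL1cm, a difference of 4.74 with no overlap. Lrp1, an endocytic receptor, ran from 1.11 to 9.83 FPKM in mMSCs and was listed at 0 in all 5 HL1cm. Scarb1, a lipoprotein receptor, was lower in mMSCs (-1.90), and Lipa, the lysosomal lipase, differed by 0.28. The population controls were 124 and 2.30 FPKM for Soat1 and 605 and 30.1 FPKM for Npc2. For Lrp1 they were 48.1 and 0.651 FPKM. The mMSC control of Lrp1 was 9.67 times the mean of the single mMSCs and above all of them. Of 9 tested in this list of 10, 3 were 2-fold or more higher in mMSCs and 3 in HL1cm (21.4% and 21.6% of all genes), with a median of 0.28. Between green and purple cells 1 of 8 was 2-fold or more higher in green and 0 in purple, against 16.3% and 12.1% of all genes. The median difference was 0.09. Among fatty acid synthesis genes, 1 of 7 was 2-fold or more higher in each cell type (21.4% of all genes in mMSCs, 21.6% in HL1cm). These were Scd1 (median 15.8 FPKM in mMSCs, 0 in HL1cm, difference 3.78 with all HL1cm under the floor of 1 FPKM) and Scd2 (10.7 and 29.8 FPKM, difference -1.52), both stearoyl-CoA desaturases. Between green and purple cells none of these 7 was 2-fold or more higher in green and Acly, ATP citrate lyase, was in purple (-1.06). Over all genes these shares were 16.3% and 12.1%.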

How the data were processed

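Single cells were captured on a Fluidigm C1 chip and amplified with the SMARTer Ultra Low RNA kit, and libraries were made with Nextera XT, which does not keep strand. Per the labels and methods, the authors aligned reads to mm10 with TopHat2 2.0.12 and estimated FPKM with Cufflinks 2.2.1, and the deposited table gives FPKM for each library. All 23 columns matched a library by name. Whole-read steps in low FPKM values were looked for, but the fullest bin of ratios between libraries held only 3.16% to 17.2% of low genes, so no reads were recovered and no count model was used.

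Values under 1 FPKM were set to 1 and log2 taken. Genes that reached 1 FPKM in 2 or more of the cells compared were kept, and 2-fold differences of group means counted without a test. Correlations used genes at that level in at least 12 mMSCs. Calculations used Python 3.11.15, pandas 2.3.3, numpy 2.4.6 and scipy 1.17.1, and the code was tested on simulated data. Cluster membership was taken from the study. The members and the gene lists were chosen with earlier results of these data known. The named genes are all members, up to 4 genes of each list with the highest mean FPKM in mMSCs, and the 5 most and 3 least like the member score. Other genes given with a list's counts, and the neighbour Ctsb and the example Canx, were named after their values were seen. Alternatives were another pseudocount or floor, other scalings, group medians and leaving out cells.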

Additional observations from a re-analysis of the deposited data

Results flagged for a closer look

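Among the 5 HL1cm, Sqle in HL1cm2 (8.40 FPKM) stood apart from the other 4, with a gap to the nearest cell of 0.79 of the whole range on the log2 scale, past Dixon's 95% limit for 5 values. It was the only such value among 21 gene and group combinations examined over HL1cm, green and purple cells, and chance alone would give about 1 in 20.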

How the results depend on the processing

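No paired analysis was possible because no result comes from a test and replicate numbers only name cells. With the floor at 10 FPKM the median mMSC minus HL1cm difference over members was -0.49, 0 members were 2-fold or more higher in mMSCs, and the median SD between mMSCs was 1.22. With cells listed at 0 left out, chosen after seeing the data, these medians were -0.68 and 1.20, Sqle reversed to 0.059, and 2 members were 2-fold or more higher in purple than in green. Rescaling each library to the same sum (TPM) also gave 2, and moved the median of all genes between green and purple cells to -0.47. With TPM or division by Gapdh the median of all genes between cell types was 0.23 or 0.22, and that of the members -0.94 or -0.91. The count of members 2-fold or more higher in HL1cm, 4 as reported, was 3 with TPM, division by Gapdh, group medians, the floor at 10 FPKM or without the cells at 0, and 5 with median ratio scaling. Without mMSC10 and mMSC13, also chosen after seeing the data, the green minus purple median was -1.58 and 5 members were 2-fold or more higher in purple. Leaving out 1 cell at a time gave 0 to 1 members 2-fold or more higher in green and 0 to 3 in purple (the latter without mMSC10, and 2 without mMSC13), and medians of the green minus purple difference from -0.60 to 0.33. The mMSC minus HL1cm median stayed between -1.45 and -1.06 when 1 HL1cm was left out. The sign of a member's difference, or of the median over members, turned in 39 of 160 alternative values for green minus purple, where most differences lay near 0, and in 2 of 104 for mMSC minus HL1cm (Sqle without the cells at 0, Idi1 by group medians). The cause of these shifts was not tested, except that removing zeros or raising the floor narrows the range by construction. With no counts, the precision of low values could not be given.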
